A study of Mus musculus with 41 samples.

Results

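The 3 genes described here, *Col6a1*, *Col6a2* and *Col6a3*, encode the α1, α2 and α3 chains of collagen VI and were taken by name from a qPCR panel of 54 mouse target genes. Their threshold cycles (Ct, the amplification cycle at which a product is called, so that a lower Ct means more template) were examined in all 41 mice of the study. Expression was measured with TaqMan assays for mouse genes on a Fluidigm dynamic array, in tissue labelled skin from female immunodeficient NSG mice. The mice had received a P nanomesh, which is a degradable electrospun mesh made of a copolymer of lactic acid and caprolactone, the same nanomesh with human endometrial mesenchymal stem/stromal cells (P+eMSC), or a sham operation with no mesh. The eMSC were SUSD2+ cells grown from endometrial biopsies, each kept as its own line, and labelled with an mCherry lentivirus, and the labels do not say which mouse received which line. The assays target the mouse genes, so any mRNA of the human cells was not what they were made to measure. Tissue was taken at 1 week from 7 sham, 6 P and 7 P+eMSC mice, and at 6 weeks from 6 sham, 8 P and 7 P+eMSC mice, with different mice at each week. NSG mice lack mature lymphocytes, and the labels give no age, so the groups were compared as strain, sex, treatment and week alone.

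Collagen VI is a matrix protein whose α1, α2 and α3 chains assemble inside the cell into a heterotrimer, and the trimers are secreted as tetramers that join into beaded microfilaments. These microfilaments lie close to basement membranes and among fibrillar collagens, and link cells to the interstitial matrix. In skin the chains are made mainly by fibroblasts, and macrophages can also make them. Because the trimer described here is built from all 3 chains, their relative levels in the same tissue are of interest beside the level of any single chain.

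In the mouse genome (GRCm38.p6, RefSeq annotation), all 3 genes are on the minus strand. *Col6a1* spans chr10:76708792-76726044 and *Col6a2* spans chr10:76595756-76623630 on the same chromosome, with 85161 bases and 2 listed genes, the predicted genes Gm51774 and Gm35608, between them. *Col6a3* lies apart from both at chr1:90766860-90844001. The promoter windows, from 250 bases before to 50 bases after each RefSeq start, are shown because the 3 chains varied together from mouse to mouse (described further on). Each is given 5′ to 3′ on the gene's strand in lower case, with matches in capitals to the TATA box (TATAAA), the CCAAT box (CCAAT), the GC box (GGGCGG) and the AP-1 site (TGANTCA), searched on both strands.
Col6a1, chr10:76725995-76726294: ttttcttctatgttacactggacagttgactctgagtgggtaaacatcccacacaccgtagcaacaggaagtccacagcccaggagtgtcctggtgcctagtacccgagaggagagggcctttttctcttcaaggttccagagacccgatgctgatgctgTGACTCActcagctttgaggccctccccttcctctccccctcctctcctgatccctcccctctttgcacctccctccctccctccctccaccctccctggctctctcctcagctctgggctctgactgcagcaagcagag
Col6a2 inner start, chr10:76623355-76623654: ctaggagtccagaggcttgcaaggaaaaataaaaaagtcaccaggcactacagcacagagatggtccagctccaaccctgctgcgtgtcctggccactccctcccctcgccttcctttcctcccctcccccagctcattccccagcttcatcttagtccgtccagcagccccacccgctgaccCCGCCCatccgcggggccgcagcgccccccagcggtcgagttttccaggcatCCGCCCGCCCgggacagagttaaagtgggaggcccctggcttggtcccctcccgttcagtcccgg
Col6a2 outer start, chr10:76623581-76623880: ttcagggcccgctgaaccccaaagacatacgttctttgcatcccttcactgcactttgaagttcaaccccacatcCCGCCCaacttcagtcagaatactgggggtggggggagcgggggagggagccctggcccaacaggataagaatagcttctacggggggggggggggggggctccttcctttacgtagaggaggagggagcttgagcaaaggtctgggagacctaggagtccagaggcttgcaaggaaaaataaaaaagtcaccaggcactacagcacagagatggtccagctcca
Col6a3, chr1:90843922-90844221: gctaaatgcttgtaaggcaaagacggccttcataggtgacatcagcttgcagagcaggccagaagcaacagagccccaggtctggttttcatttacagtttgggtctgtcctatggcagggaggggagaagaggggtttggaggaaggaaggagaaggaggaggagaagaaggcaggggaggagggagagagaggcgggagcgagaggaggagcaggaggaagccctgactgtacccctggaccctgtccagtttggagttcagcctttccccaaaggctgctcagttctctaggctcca
No motif was shared by the windows of all 3 genes. The *Col6a1* window held 1 AP-1 match, at position -90 from the start, and none of the other motifs. The inner *Col6a2* window held 3 GC box matches on the reverse strand, the last 2 of which overlap, and the outer window held 1. The *Col6a3* window held no match to any of these letters. Among 32851 mouse promoter windows of the same length, the AP-1 letters were found in 7.81%, the GC box in 35.7%, the CCAAT box in 37.4% and the TATA box in 13.6%, so that these matches describe the windows only. CpG pairs numbered 16 in the inner *Col6a2* window, 6 in the outer one and 3 in each of the *Col6a1* and *Col6a3* windows, against a median of 7 over all windows.

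Levels are given as 18S Ct minus gene Ct, a log2 scale on which a higher, less negative, value means more mRNA relative to 18S ribosomal RNA, and 1 unit is a doubling. A Ct was called for 122 of the 123 chain values. The exception was *Col6a1* in P mouse 52 at 6 weeks, in which 31 of the 54 target genes had no Ct and the 18S Ct, 7.79, was the highest of all mice (lowest 6.20). Its *Col6a2* and *Col6a3* levels, -18.2 and -18.7, were the lowest measured, and the comparisons of *Col6a2* and *Col6a3* levels that rest on the P mice of 6 weeks are therefore given with and without it. The median Ct was 14.3 for *Col6a1*, 15.7 for *Col6a2* and 17.3 for *Col6a3*, which placed the chains 9th, 16th and 28th from the lowest among the 54 genes. *Col1a1* and *Col3a1*, the fibrillar collagens I and III, had the lowest Cts of the panel.

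The 3 chains kept 1 order in every mouse. *Col6a1* had the highest level, *Col6a2* the next and *Col6a3* the lowest in 40 of 40 mice with a Ct for each, and *Col6a2* also exceeded *Col6a3* in mouse 52. An offset between 2 assays depends on primer, probe and preamplification efficiency as well as on mRNA, so the order was the same from mouse to mouse but is not a ratio of molecules. The levels themselves differed widely between mice, with an SD within groups around the median of the panel (given further on). The highest mouse, 2351 of P+eMSC at 6 weeks, had a *Col6a1* level 7.83 log2 units above the lowest, mouse 78 of P+eMSC at 1 week, or 228-fold. Without mouse 52, the same 2 mice were the extremes for *Col6a2* (6.81 log2 units, 112-fold) and *Col6a3* (8.45 log2 units, 351-fold). In mouse 78, 6 of the 54 target genes had no Ct.

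For *Col6a1*, which encodes one of the 2 short chains of the trimer, the level at 1 week ran from -10.4 through a median of -8.01 to -4.88 in the sham mice. It ran from -10.5 through -8.34 to -6.19 in the P mice, and from -12.2 through -7.59 to -4.81 in the P+eMSC mice. The P+eMSC mice thus held both the lowest and the highest value of that week, and all 3 groups overlapped. At 6 weeks the *Col6a1* level ran from -7.80 through -6.95 to -5.09 in the sham mice, from -10.6 through -7.70 to -6.79 in the 7 P mice with a Ct, and from -8.74 through -6.86 to -4.34 in the P+eMSC mice. The sham mice lay closest together, and 1 P mouse, 53, lay below each of the other mice of that week with a Ct.

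*Col6a2*, which encodes the other short chain and lies near *Col6a1*, followed the same layout at a lower level. At 1 week its level ran from -11.3 through -9.64 to -6.31 in sham, from -11.1 through -9.37 to -7.20 in P, and from -12.9 through -8.92 to -6.38 in P+eMSC. At 6 weeks it ran from -9.53 through -8.57 to -6.42 in sham, from -18.2 through -9.08 to -8.05 in P, and from -10.2 through -8.26 to -6.06 in P+eMSC. No P mouse of 6 weeks reached the highest 3 P+eMSC values, while the remaining P+eMSC mice lay among the P mice.

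*Col6a3*, which encodes the long α3 chain whose cleaved C-terminal piece is called endotrophin, was the lowest of the chains. At 1 week its level ran from -14.0 through -10.6 to -7.45 in sham, from -13.5 through -11.8 to -8.72 in P, and from -15.8 through -10.4 to -7.44 in P+eMSC. At 6 weeks it ran from -11.7 through -10.3 to -7.49 in sham, from -18.7 through -10.9 to -9.71 in P, and from -11.4 through -9.84 to -7.30 in P+eMSC. For each chain, P+eMSC at 6 weeks had the highest median and sham at 6 weeks the next, but all 15 pairs of groups overlapped for each of the 3 genes, so no neighbours in the order of the medians were separated.

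**Figure D1:**
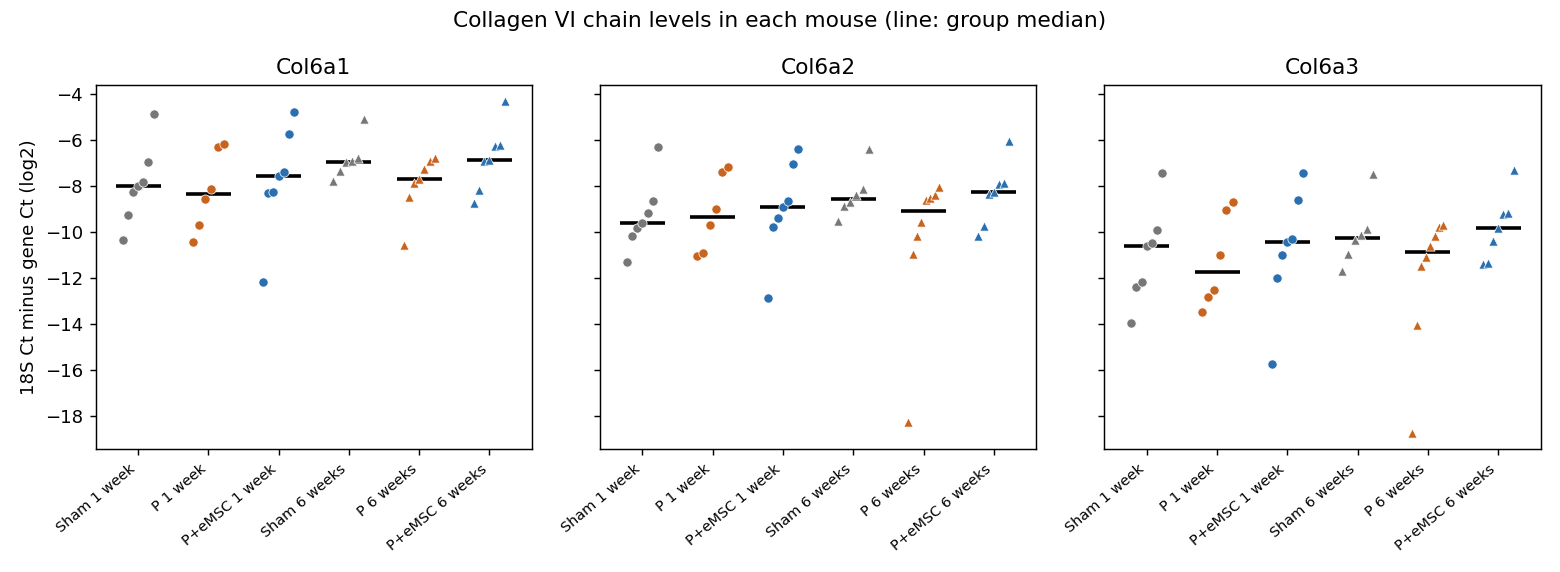
Level of each collagen VI chain (18S Ct minus gene Ct, log2) in each mouse of the 6 groups, with circles for 1 week, triangles for 6 weeks and a line at the group median. The 6 groups overlap for each chain, and mouse 52 of P at 6 weeks lies far below the rest for *Col6a2* and *Col6a3*.

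Groups were compared by a two-sided exact Mann-Whitney U test on all 54 target genes, with the Hodges-Lehmann shift (the median of all differences between a mouse of one group and a mouse of the other) and its 95% interval. A gene was called where p was at or below the threshold of the study's statistics section, which lies just above 0.05. Over 9 comparisons, 0 of the 27 chain shifts were called, none had an exact p under 0.05, and the smallest exact p was 0.0939 (smallest adjusted p 0.277, Benjamini-Hochberg over the panel). Each of the 27 intervals included 0. They were between 2.92 and 6.49 log2 units wide, so sizeable shifts in either direction were not excluded by these numbers of mice.

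The comparison of P+eMSC with P asked what the addition of the cells to the mesh did to the mouse genes. At 1 week, 0 of the 3 chains were called, beside 0% of all 54 genes, and the shifts were 0.66 for *Col6a1*, 0.35 for *Col6a2* and 0.77 for *Col6a3*. With each mouse left out in turn they ranged from 0.36 to 1.27, from 0.13 to 1.03 and from 0.47 to 1.50, and no chain was called. The *Col6a3* shift, from -2.91 to 3.57 (exact p = 0.445), was the 2nd highest of the panel, whose median shift was -0.07. Another reference was the median Ct in each mouse of the panel's genes other than the 3 chains. By it 0 genes were called higher and 4 lower in that comparison, and no chain was called. At 6 weeks, 0 of the 3 chains were called while 18.5% of the genes were, all of them higher in P+eMSC. The shift was 0.95 (95% interval -0.51 to 2.95) for *Col6a1*, or 1.93-fold, 0.74 (-0.21 to 3.06) for *Col6a2*, or 1.67-fold, and 1.18 (-0.28 to 4.19) for *Col6a3*, or 2.26-fold, with exact p = 0.209, 0.0939 and 0.152. These lay on both sides of the panel's median shift of 1.15, at ranks 33, 39 and 25 of 54 from the highest.

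The 6 week *Col6a2* result depended on single P+eMSC mice. Without mouse 60 its shift was 1.26 with exact p = 0.0293, and without mouse 2210 it was 1.26 with exact p = 0.0426, both past the threshold. Without mouse 52 the shifts of *Col6a1*, *Col6a2* and *Col6a3* were 0.95, 0.62 and 0.76, with exact p = 0.209, 0.165 and 0.259. Mouse 2356, labelled P at 6 weeks, had deposited fold changes that match the 1 week sham mice as calibrator, so its week is uncertain. Counted in P at 1 week, it moved the 6 week *Col6a2* shift to 1.21 (exact p = 0.0530), and the *Col6a2* shift between the weeks in P from -0.50 to -0.99.

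With mouse 52 included, the direction changed with the reference. Measured against this panel median instead of 18S, the 6 week shifts of P+eMSC against P were -0.24 for *Col6a1*, -0.53 for *Col6a2* and -0.30 for *Col6a3*, and the lower *Col6a2* level in P+eMSC passed the threshold (exact p = 0.0140, adjusted p = 0.227). That median, which leaves out the chains, could use only the 21 other genes with a Ct in mouse 52 and the other mice compared. With it 1 gene was called higher and 8 lower, against 10 higher and 0 lower with 18S. Without mouse 52 the panel median used 50 genes, the shifts were 0.20, 0.03 and 0.35, and none was called (exact p = 0.318, 1 and 0.620). Over all genes the median shift was 1.15 by 18S and -0.37 by the panel median, and without mouse 52 it was 0.99 and 0.17.

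P and sham tissue were compared to show the response to the mesh alone, and P+eMSC was set against the same sham mice, so the comparisons of a week share these mice. For P against sham at 1 week, 0 of the 3 chains were called, beside 5.56% of the genes, with shifts of -0.30 for *Col6a1*, 0.13 for *Col6a2* and -0.42 for *Col6a3*. At 6 weeks 0 of the 3 were called, beside 25.9% of the genes, all of them lower in P. The *Col6a1*, *Col6a2* and *Col6a3* shifts were -0.75 (-2.78 to 0.14), -0.98 (-3.13 to 0.33) and -0.74 (-3.99 to 0.59), close to the panel's median of -0.83 (exact p = 0.181, 0.282 and 0.414). Without mouse 52 the *Col6a2* shift was -0.56 and that of *Col6a3* was -0.37. Set against the panel median, the 3 shifts at 6 weeks were 0.12, 0.29 and 0.28, with 9 genes called higher and 0 lower, against 0 higher and 14 lower with 18S. With mouse 52 left out as well they were -0.51, -0.41 and -0.55, with 1 gene called higher and 4 lower. At 1 week the split moved from 0 higher and 3 lower with 18S to 4 higher and 1 lower with the panel median, while the *Col6a1* shift became 0.04.

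P+eMSC against sham gave 0 of 3 chains called at 1 week, beside 0% of the genes, and 0 of 3 at 6 weeks, again beside 0%. The shifts at 1 week were 0.41, 0.44 and 0.19 for *Col6a1*, *Col6a2* and *Col6a3*. At 6 weeks they were 0.09 (-1.76 to 1.52), 0.23 (-1.62 to 1.60) and 0.33 (-1.51 to 2.49), the smallest set of shifts among the comparisons at that week. Set against the panel median they were -0.17, -0.14 and -0.02, so the direction of these small shifts was set by the reference.

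The comparison of weeks, in different mice, showed how the chains stood later after the operation. In sham mice 0 of the 3 chains were called, beside 3.7% of the genes. The 6 week sham mice had *Col6a1* higher by a shift of 1.06 (-0.38 to 3.02; exact p = 0.101), *Col6a2* by 1.00 (-0.35 to 2.75; exact p = 0.138) and *Col6a3* by 0.65 (-1.22 to 3.13; exact p = 0.366), against a panel median of 0.51. Mouse 2269, the highest of the 1 week sham mice for each chain, bore on this: without it the *Col6a1* shift was 1.30 (exact p = 0.0152) and the *Col6a2* shift 1.28 (exact p = 0.0260), both past the threshold, and the *Col6a3* shift was 1.30 (exact p = 0.132). Without mouse 120 the *Col6a3* shift was 0.40. In P mice 0 of 3 chains were called, beside 0% of the genes, and the shifts were 0.34 for *Col6a1*, -0.50 for *Col6a2* and -0.51 for *Col6a3*, of which the last 2 were 0.14 and 0.63 without mouse 52. In P+eMSC mice 0 of 3 were called, beside 0% of the genes, with shifts of 0.73, 0.67 and 0.61, below the panel's median of 0.88. By the panel median the P+eMSC shifts were -0.14, -0.36 and -0.28.

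Whether an effect differed between the weeks was tested with limma's interaction contrasts over all 54 genes. For P+eMSC against P, the 6 week difference exceeded the 1 week difference by 0.68 (SE 1.31) for *Col6a1*, 1.76 (SE 1.55) for *Col6a2* and 1.66 (SE 1.66) for *Col6a3*, with limma adjusted p of 0.662, 0.504 and 0.530, beside a median of 1.70 over the panel. Without mouse 52 the values were 0.68, 0.63 and 0.70, beside a median of 1.22 over the panel, each with a limma adjusted p of 0.669. For P against sham the interaction was -0.84 (SE 1.34), -2.05 (SE 1.58) and -1.59 (SE 1.69) for *Col6a1*, *Col6a2* and *Col6a3*, with limma adjusted p of 0.759, 0.736 and 0.736, beside a median of -1.35 over the panel. Without mouse 52 it was -0.84, -0.92 and -0.62, beside a median of -0.76 over the panel, each with a limma adjusted p of 0.922. For P+eMSC against sham it was -0.16, -0.29 and 0.08, each with a limma adjusted p of 0.999. No gene of the panel passed an adjusted p of 0.05 in any of the 3 contrasts, and with 18S 0 had an unadjusted p under 0.05. Set against the panel median, the *Col6a2* interaction of P+eMSC against sham was -0.87, with a limma adjusted p of 0.953 and an unadjusted limma p of 0.0432. No other gene of the panel was under 0.05 unadjusted in that contrast.

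**Figure D2:**
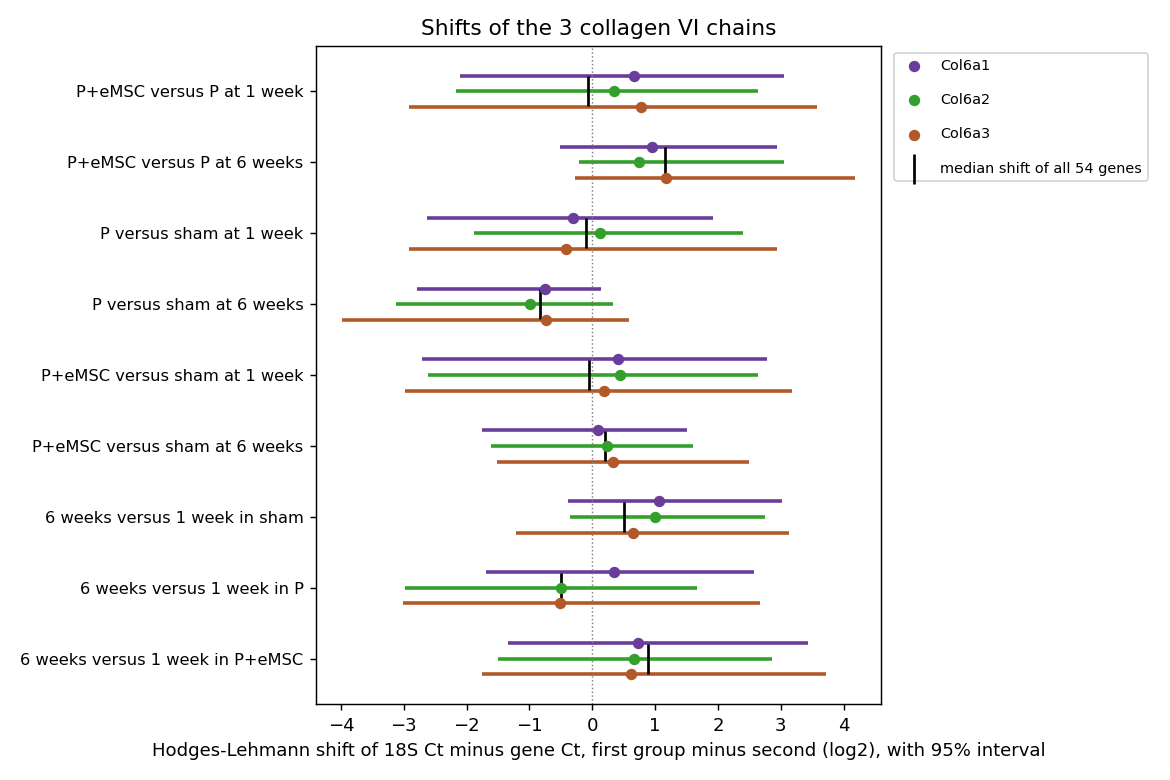
Shift of each chain in the 9 comparisons (first group minus second, log2, points) with its 95% interval (lines), and the median shift of all 54 genes (black bars). Each interval crosses 0, and at 6 weeks the chains sit beside the panel's median for P+eMSC against P and for P against sham.

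The difference between 2 chains in the same mouse needs no reference gene, since 18S cancels. Over all mice *Col6a2* lay a median of 1.39 Ct behind *Col6a1* (difference of levels -1.39), *Col6a3* lay at -2.94 from *Col6a1* and at -1.56 from *Col6a2*. By group, the median of *Col6a2* minus *Col6a1* was -1.43, -1.03 and -1.31 in sham, P and P+eMSC at 1 week, and -1.58, -1.31 and -1.55 at 6 weeks. The P mice of each week had the smallest gap between these chains, and the groups overlapped. The median of *Col6a3* minus *Col6a1* ran only from -3.19 in sham at 6 weeks to -2.81 in P at 1 week.

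Of the 27 tests of a chain difference (3 pairs, 9 comparisons), 1 was called by the exact Mann-Whitney U test, run on all 1431 pairs of target genes. In P+eMSC mice *Col6a2* minus *Col6a1* was lower at 6 weeks than at 1 week: the values ran from -1.72 through a median of -1.55 to -1.33 at 6 weeks and from -1.58 through -1.31 to -0.70 at 1 week. Most of the 6 week mice lay below most of the 1 week mice, with overlap between -1.58 and -1.33. In this comparison of weeks 1.68% of all gene pairs were called, and 1 call in 27 tests is no more than the threshold alone could give. The shift was -0.24 (-0.63 to -0.02; exact p = 0.0262, adjusted p = 1 over all pairs). As a difference of means it was -0.30, with p = 0.0204 by the exact permutation test and p = 0.374 by limma on the same 2 groups (both unadjusted), while leaving out any 1 mouse kept the exact call in 14 of 14 refits.

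In the other comparisons 0 of 3 chain pairs were called. The share of all gene pairs called there was 10.7% for P+eMSC against P at 1 week, 3.98% for P+eMSC against P at 6 weeks, 10.6% for P against sham at 1 week and 10.4% for P against sham at 6 weeks. It was 0.908% and 1.75% for P+eMSC against sham at 1 and 6 weeks, 3.35% for 6 weeks against 1 week in sham and 2.8% in P. The largest of these chain shifts was that of *Col6a2* minus *Col6a1* in P against sham at 1 week, 0.39 (-0.24 to 0.96; exact p = 0.101), which was 0.48 with exact p = 0.0303 without P mouse 132. The same pair in P+eMSC against P at 1 week had a shift of -0.24, and without mouse 132 one of -0.39 with exact p = 0.0480. *Col6a3* minus *Col6a2* in P+eMSC against sham at 6 weeks had a shift of 0.29, and without sham mouse 401 one of 0.46 with exact p = 0.0480.

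**Figure D3:**
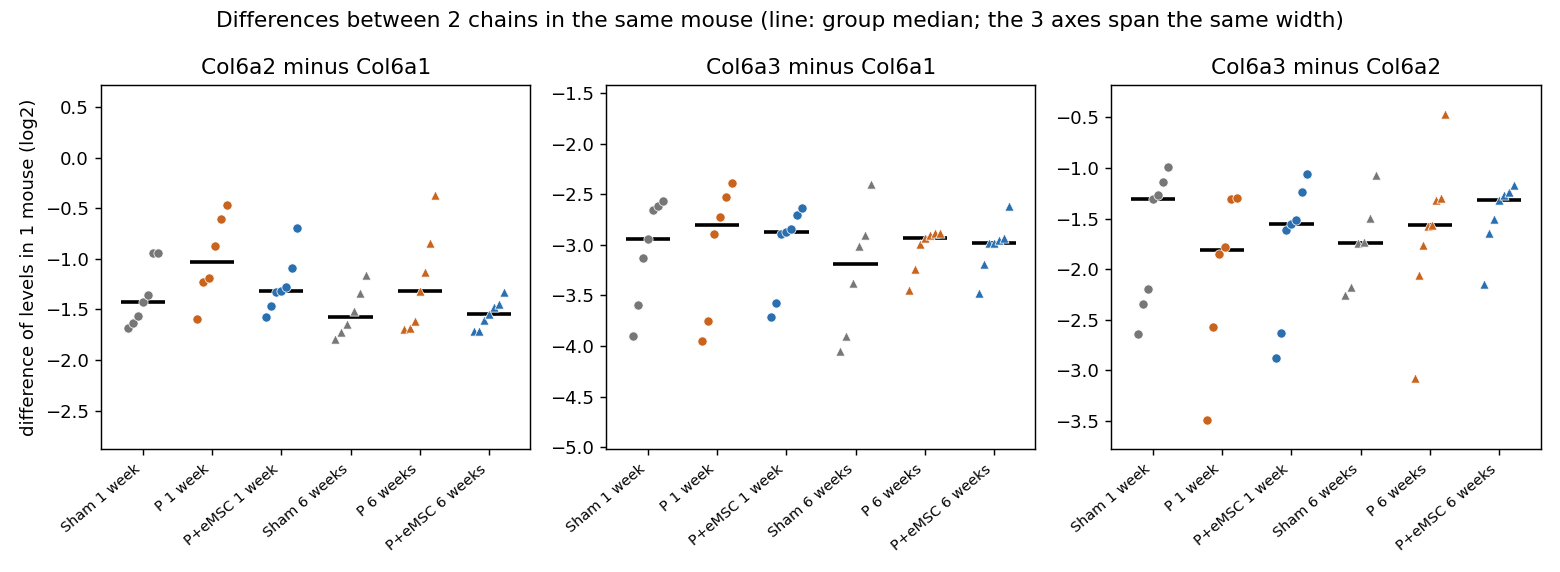
Difference of levels between 2 chains in the same mouse (log2) for the 3 pairs, by group, with circles for 1 week, triangles for 6 weeks and a line at the group median. Group medians stay within narrow bands, and *Col6a2* minus *Col6a1* in P+eMSC is tightest at 6 weeks, from -1.72 to -1.33.

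The differences between chains varied far less from mouse to mouse than the chains themselves. Within groups the SD of the level was 1.65 for *Col6a1*, 1.52 for *Col6a2* and 1.92 for *Col6a3* (n = 40 mice with a Ct for each). These ranked 23rd, 20th and 32nd from the smallest among 48 genes, whose median SD was 1.67, so the spread of the levels was ordinary for the panel. The SD of *Col6a2* minus *Col6a1* was 0.34, the smallest among the 1128 pairs of the 48 genes detected in those mice. The SD of *Col6a3* minus *Col6a1*, 0.47, was the 4th smallest and that of *Col6a3* minus *Col6a2*, 0.62, the 32nd smallest, against a median of 1.48 over all pairs. The 2nd and 3rd smallest were *Itgb1* minus *Tgfbr1* (0.42) and *Timp2* minus *Mmp2* (0.45).

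The levels of the 3 chains rose and fell together across mice. On deviations from the group means, so that differences between groups do not enter, Pearson's r was 0.981 for *Col6a1* with *Col6a2* (Spearman's rho 0.961, n = 40), 0.976 for *Col6a1* with *Col6a3* (rho 0.973, n = 40) and 0.958 for *Col6a2* with *Col6a3* (rho 0.949, n = 41). Each had a permutation p of 1e-05, the smallest that 100000 resamples can give, and an adjusted p of 8e-05 over the 24 relations computed. Leaving out the 2 mice farthest from the median gave r of 0.971, 0.963 and 0.949. Animal numbers fell in 2 ranges, below 1000 and above 2000, whose meaning the labels do not give, and r was 0.975, 0.964 and 0.954 in the first and 0.989, 0.986 and 0.969 in the second. In bulk tissue, fewer cells of a type and less mRNA per cell cannot be told apart, so these values do not show in which cells the chains varied together.

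Both levels of a pair share the 18S Ct and the amount of amplified cDNA of their mouse, and the panel as a whole covaried: the median r over 1128 gene pairs was 0.677. The chain pairs ranked 1st, 2nd and 4th among them. Once levels were set against the panel median, the median r over all pairs was 0.083. The chain pairs then had r of 0.811 for *Col6a1* with *Col6a2* (14th), 0.893 for *Col6a1* with *Col6a3* (1st) and 0.759 for *Col6a2* with *Col6a3* (39th). The chains were not in that median, whereas its own genes were set against themselves, so these ranks do not compare like with like. The ranks by both references used 40 mice. Over all 41 mice r of *Col6a2* with *Col6a3* by the panel median was 0.707. Within the single groups r was 0.9 or more in all 21 chain relations with 18S, counting the 3 over all mice. In sham mice at 6 weeks this rested on mice 123 and 401: without them r of *Col6a1* with *Col6a3* fell from 0.948 to 0.039 (n = 4), with *Col6a2* from 0.978 to 0.579, and r of *Col6a2* with *Col6a3* fell from 0.983 to 0.724. In P mice at 1 week r of *Col6a2* with *Col6a3* fell from 0.912 to 0.549 without mice 2268 and 2308. In P mice at 6 weeks the panel median gave r of -0.196 for *Col6a1* with *Col6a2* and -0.283 for *Col6a2* with *Col6a3*. In this group these relations were seen with 18S only. The panel median over all 41 mice used only 21 genes. By it, r of *Col6a2* with *Col6a3* was 0.553 in P at 1 week and 0.630 in P+eMSC at 6 weeks. In the other groups it was 0.836 in sham and 0.868 in P+eMSC at 1 week, and 0.925 in sham at 6 weeks. That of *Col6a1* with *Col6a2* was 0.737 in P at 1 week and 0.913 or more in the sham and P+eMSC groups.

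**Figure D4:**
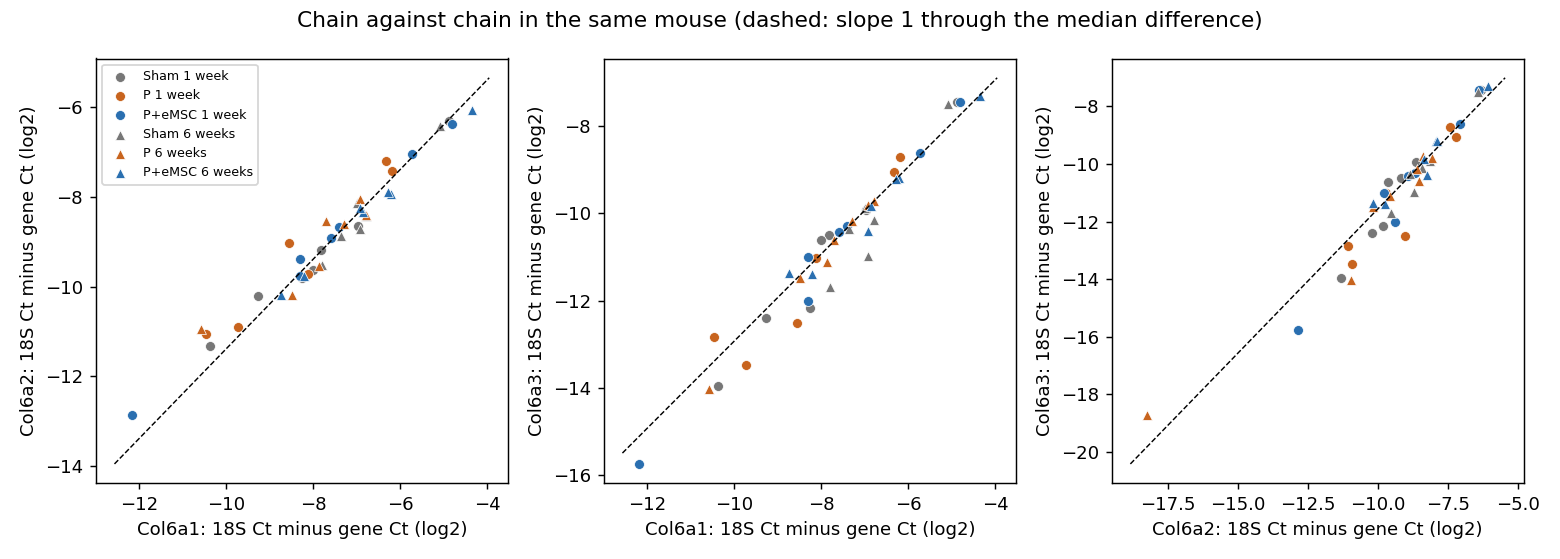
Level of 1 chain against another in the same mouse (18S Ct minus gene Ct, log2), with colour for treatment, circles for 1 week, triangles for 6 weeks and a dashed line of slope 1 through the median difference. The mice lie along the line in each panel, with r of 0.981, 0.976 and 0.958 within groups.

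The balance of the chains moved somewhat with their level. Per log2 unit of *Col6a1* within groups, *Col6a2* changed by 0.90 and *Col6a3* by 1.13, so the gap from *Col6a2* to *Col6a3* was wider in mice with little collagen VI mRNA. The level of *Col6a1* correlated with *Col6a3* minus *Col6a2*, a difference that holds neither *Col6a1* nor 18S, with r = 0.613 and rho = 0.534 (n = 40, permutation p = 0.00026 and 0.00144, adjusted 0.000624 and 0.00346). It was 0.530 without mice 78 and 2269, 0.608 and 0.711 in the lower and higher range of animal numbers, and 0.660 with the panel median. The level of *Col6a3* correlated with *Col6a2* minus *Col6a1* at r = -0.459 (permutation p = 0.00509), and the level of *Col6a2* with *Col6a3* minus *Col6a1* at r = 0.466 (permutation p = 0.0055). Without the 2 farthest mice these were -0.391 and 0.384. A qPCR assay whose efficiency falls at high Ct would move with level too, and its part in these relations was not tested. Mouse 52, which has no *Col6a1* Ct, lay the other way, with the smallest gap of all mice between *Col6a3* and *Col6a2* (-0.47).

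Collagen VI was also set against the fibrillar collagens of the panel, *Col1a1* and *Col3a1*, in the same mouse. In sham mice, *Col6a1* stood closer to *Col1a1* at 6 weeks (median difference of levels -4.12) than at 1 week (-4.98), a shift of 0.97 (0.11 to 1.74; exact p = 0.0140), and closer to *Col3a1* (-3.29 against -4.15), a shift of 0.82 (0.23 to 1.34; exact p = 0.00816). *Col6a2* against *Col3a1* moved the same way by 0.69 (exact p = 0.05128), with an interval of -0.13 to 1.44 that included 0. These 3 of 6 pairs were called where 3.35% of all gene pairs were, and 2 had an exact p under 0.05. Each had an adjusted p of 1 over the 1431 pairs. The shifts of the other 3 were 0.73, 0.87 and 0.68, with exact p = 0.101, 0.445 and 0.366. In the other 8 comparisons 0 of 48 such pairs were called, and 0 had an exact p under 0.05.

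The genes most like collagen VI were found by correlating each of the 45 other genes detected in 40 mice with the mean of the 3 chains, again within groups. With 18S the highest r were those of *Mrc1*, the mannose receptor of alternatively activated macrophages (0.942), *Mmp2*, a gelatinase made by fibroblasts (0.937), *Cdh2*, N-cadherin (0.933), *Il4ra*, the receptor chain for interleukins 4 and 13 (0.919), and *Col3a1* (0.914). By the panel median they were *Mrc1* (0.613), *Col1a1* (0.525), *Col3a1* (0.481), *Ccr2*, a chemokine receptor of monocytes (0.472), and *Cdh2* (0.426). Of these, all but *Cdh2* were themselves among the genes of that median, so their r were not obtained on equal terms. *Mrc1*, *Col3a1* and *Cdh2* were among the first 5 by both. The SD within groups of *Col6a1* minus *Mrc1* was 0.52, and that of *Col6a1* minus *Mmp2* and minus *Cdh2* was 0.54.

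**Figure D5:**
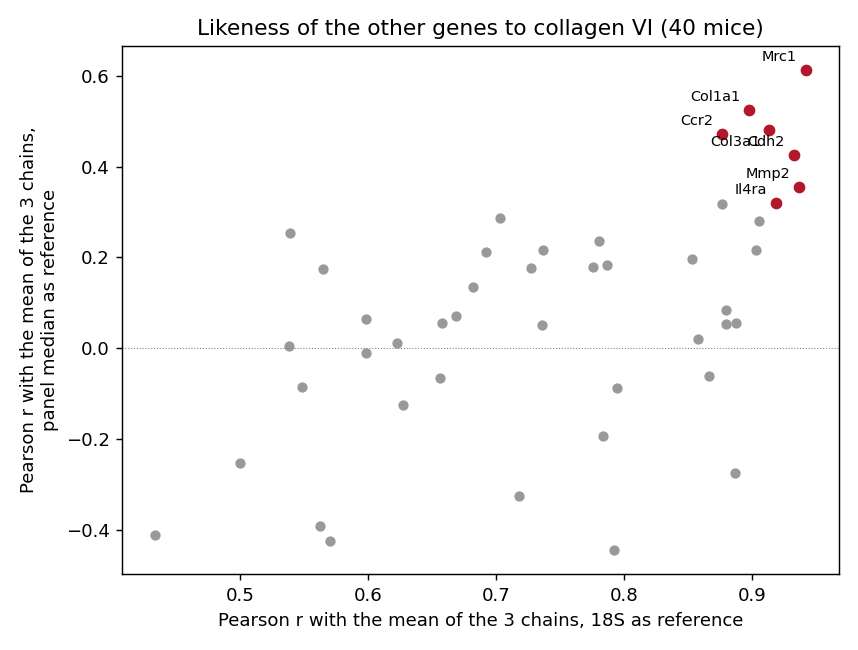
Pearson's r of each of 45 genes with the mean of the 3 chains, on deviations from the group means in 40 mice, with 18S (horizontal) and with the panel median (vertical) as reference. The named genes in red are the first 5 by either reference, and *Mrc1* is highest on both axes (0.942 and 0.613).

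The panel held 17 other matrix genes (2 fibrillar collagens, 3 matrix metalloproteinases, 4 of their tissue inhibitors, 6 genes of TGF-β signalling and 2 matrix receptors). With 18S as reference, 6 of them were called higher in P+eMSC than in P at 6 weeks, with a median shift of 1.39, namely *Mmp2*, *Timp3*, *Tgfb3*, *Tgfbr1*, *Ctgf* and *Itgb1*, beside 18.5% of all genes. Neither fibrillar collagen was called, with shifts of 1.43 for both *Col1a1* and *Col3a1*. The integrin β1 subunit encoded by *Itgb1* is part of collagen receptors, and its shift was 1.68 (exact p = 0.0140, adjusted p = 0.158). For P against sham at 6 weeks 8 of the 17 were called lower, with a median shift of -1.04, among them *Timp2* and *Timp3* with adjusted p = 0.0360 each, beside 25.9% of all genes, and 1, *Tgfb3*, was called lower at 1 week, beside 5.56%. In sham mice 2 of the 17, *Tgfb2* and *Tgfb3*, were called higher at 6 weeks than at 1 week, beside 3.7% of all genes. In the remaining 5 comparisons 0 of the 17 were called. These directions held for 18S only in part: with the panel median 0 were called higher and 1 lower in P+eMSC against P at 6 weeks (1 higher, *Timp3*, and 0 lower without mouse 52), and 3 higher and 0 lower in P against sham at 6 weeks (0 higher and 2 lower, *Timp2* and *Timp3*, without mouse 52). By that reference 0 of the 17 were called in P against sham at 1 week, and between the weeks in sham 1, *Timp2*, was called higher, so *Tgfb2* and *Tgfb3* were called in these comparisons with 18S only.

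The tissue contained the marker genes of several cell types, measured as 18S Ct minus gene Ct. Of the 5 fibroblast markers (*Col1a1*, *Col3a1*, *Mmp2*, *Timp2*, *Cxcl12*) each was detected in all 41 mice, and their mean level ran from -14.4 in mouse 52 to -2.51, with group medians from -5.87 in P at 6 weeks to -4.19 in P+eMSC at 6 weeks. These are the same groups as the lower and the higher of the chains at that week. The mean of 6 myeloid markers of the panel had group medians from -12.4 in sham at 6 weeks to -10.9 in P+eMSC at 6 weeks. In P+eMSC against P at 6 weeks 1 of 5 fibroblast markers and 0 of 6 myeloid markers were called, beside 18.5% of all genes, and their part in the levels of collagen VI was not tested. The single epithelial marker, *Cdh1*, was detected in 40 of 41 mice.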

How the data were processed

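RNA from 41 mice was converted to cDNA, preamplified and amplified with TaqMan assays on Fluidigm arrays. The authors deposited a table of Ct values, a score without normalization in which 999 or no value marks no Ct, and a table of linear fold change ratios, calculated against 18S and the sham controls. Ct values carry no counts, so precision was set by how many mice were measured. Levels were calculated here as 18S (*Rn18s*) Ct minus gene Ct, with values of no Ct left out. The deposited fold changes of the chains lay within 0.01 (log2) of those recalculated in all mice but 2356, labelled P at 6 weeks, which differed by 1.12, 0.954 and 0.904, lay within 0.01 when set against the 1 week sham mice, and was kept as labelled. No column lacked a sample.

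Groups were taken from the labels. The labels do not say whether mice shared a cage, a surgery day or a biopsy, and some animals came from an earlier study. The p-values treat the mice as independent, which is not known. A cell line could be shared between P+eMSC mice, also of different weeks. Any variation between lines, or between reused and other animals, is mixed into the spread between mice. A two-sided exact Mann-Whitney U test, the test of the study's methods, was run on each gene that had 4 or more values per group, and on the difference of each pair of genes, with Benjamini-Hochberg adjustment over all genes or pairs. Correlations used exact permutation within groups and 100000 resamples over all mice. Interactions used limma 3.58.1 in R 4.3.3, other steps Python 3.11.15, numpy 2.4.6, pandas 2.3.3 and scipy 1.17.1, and the test functions were tested on simulated data. Alternatives were another reference, other tests and thresholds, values for undetected genes, and leaving out mice. The other reference was the median Ct of the panel genes, without the 3 chains, that were detected in all mice compared. Named genes are the 3 chains, the listed matrix genes and the 5 genes most correlated with the chains by each reference. The members and lists were chosen with earlier results of these data known. Promoter windows and gene positions are from RefSeq tables (GRCm38.p6), in which 48 of the 54 panel genes matched a symbol and 3 a synonym. TaqMan probe sequences were not used here.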

Additional observations from a re-analysis of the deposited data

Results flagged for a closer look

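The *Col6a2* level of mouse 52 (P at 6 weeks) lay apart from its group. Its gap to the nearest of the other 7 mice, divided by the group's whole range, was 0.715, above Dixon's critical value for 8 samples. Chance flags about 1 in 20 groups, and this was the only one flagged among 36 sets of values (3 chains and 3 chain differences in 6 groups). The mouse had no Ct for 31 of the 54 target genes, *Col6a1* among them, and its *Col6a3* level was also the lowest of the group.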

How the results depend on the processing

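Each of the 27 shifts, 27 chain differences, 9 interactions and 6 correlations over all mice was given alternatives with 1 choice changed at a time. Where mouse 52 was left out together with the change to the panel median, 2 choices were changed. Some alternatives changed the threshold only and recalculated nothing. Of 606 alternative values of the shifts, 561 kept their direction and their side of the threshold, as did 473 of 513 for the chain differences, 31 of 36 for the interactions and 12 of 12 for the correlations. The 561 include 27 values judged at p below 0.05 and 27 at adjusted p below 0.05. With 0 shifts called, these stricter thresholds could not change any. The 31 include 9 values judged only at an adjusted p below 0.1. The panel median in place of 18S reversed 15 shifts and left 12 the same. Among the shifts, the one alternative that kept all mice and passed the threshold was the panel median for *Col6a2* in P+eMSC against P at 6 weeks, in the opposite direction. The cause of the reversals was not tested. Leaving out mouse 52 was chosen after seeing the data. *Gapdh* as reference was not run, since the Ct table used here has no such row.

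By the panel median instead of 18S the following changed sign, in the order *Col6a1*, *Col6a2*, *Col6a3*: P+eMSC against P at 6 weeks to -0.241, -0.534 and -0.305, P against sham at 6 weeks to 0.115, 0.286 and 0.275, P+eMSC against sham at 6 weeks to -0.170, -0.136 and -0.0223, and 6 weeks against 1 week in P+eMSC to -0.139, -0.364 and -0.280. With mouse 52 left out as well, P+eMSC against P at 6 weeks gave 0.203, 0.0325 and 0.349. P against sham at 6 weeks then gave -0.513, -0.413 and -0.551, so both comparisons kept the sign they had with 18S. *Col6a1* in P against sham at 1 week became 0.0352, and in P the weeks' shifts of *Col6a2* and *Col6a3* became 0.353 and 0.655 (0.239 and 0.158 without mouse 52, and 0.140 and 0.626 with 18S without it). The interactions of P+eMSC against P became -0.663, -0.613 and -0.708, and those of *Col6a3* became 0.201 for P against sham and -0.507 for P+eMSC against sham. The *Col6a1* shift between weeks in P became -0.248 with the undetected value set below the lowest, and -0.248 with mouse 2356 counted at 1 week.

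As a difference of means (exact permutation test, and limma on the 2 groups), *Col6a3* minus *Col6a1* changed sign to 0.00474 in P+eMSC against P at 1 week, 0.0220 at 6 weeks (0.00223 with the undetected value set low), 0.0241 in P+eMSC against sham at 1 week, and 0.000528 and 0.0178 between the weeks in P and P+eMSC, and *Col6a2* minus *Col6a1* to -0.0208 in P+eMSC against sham at 6 weeks. The 1 called difference, *Col6a2* minus *Col6a1* between the weeks in P+eMSC, was no longer called by limma (-0.297) or at an adjusted p below 0.05 (-0.244).

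Leaving out each mouse in turn moved the *Col6a2* shift in P+eMSC against P at 6 weeks between 0.562 and 1.26, and the sham shifts between weeks from 0.90 to 1.30 for *Col6a1* and from 0.765 to 1.28 for *Col6a2*. In P against sham at 1 week the ranges were -0.639 to 0.130, -0.453 to 0.479 and -0.881 to 0.183 for the 3 chains, and between the weeks in P -0.368 to 0.855, -0.916 to 0.291 and -0.877 to 0.935. P+eMSC against sham gave -0.0431 to 0.757 for *Col6a1* at 1 week, and -0.0430 to 0.491 for *Col6a1* and -0.0212 to 0.464 for *Col6a2* at 6 weeks. *Col6a2* minus *Col6a1* ran from -0.390 to -0.127 in P+eMSC against P and from 0.333 to 0.477 in P against sham at 1 week, and from -0.0727 to 0.0732 in P+eMSC against sham at 6 weeks. *Col6a3* minus *Col6a1* ran from -0.174 to 0.0418 and from -0.0488 to 0.00223 in P+eMSC against P at 1 and 6 weeks, from -0.0628 to 0.179 in P against sham and from -0.108 to 0.0599 in P+eMSC against sham at 1 week. *Col6a3* minus *Col6a2* ran from 0.232 to 0.464 in P+eMSC against sham at 6 weeks and from -0.360 to 0.0751 between the weeks in sham.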
